A study of Mus musculus with 6 samples.

Results

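Genes of ceramide and sphingolipid metabolism were described in epidermis of C57BL/6 mice at E19.5, in 3 libraries whose genotype label is control and 3 labelled Rictor -/-. The 32 genes were taken from a list of enzymes, regulators and transporters, matched by symbol, and all 32 were found among 13500 tested genes. They comprised 15 genes of synthesis, 6 of acylceramide formation and export, 5 of head-group transfer and its reversal, and 6 of breakdown. Every one of them had a mean of at least 1 FPKM in both groups, so none entered the test through a single group. FPKM are fragment counts divided by transcript length and by the size of the library. The labels do not say what drives the Rictor deletion, which cells carry it or whether each library came from its own animal. The p-values therefore describe the spread among these libraries, part of which may be technical.

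Ceramides are made on the endoplasmic reticulum from serine and palmitoyl-CoA through 3-ketodihydrosphingosine and dihydroceramide, and carry a sphingoid base joined to a fatty acid. In the outer epidermis many carry fatty acids that were lengthened and hydroxylated, and some of these are linked to linoleate. Ceramides are glucosylated or, for those without linoleate, also turned into sphingomyelin. They are packed into lamellar granules and released to form the lipid layers of the permeability barrier. Ceramidases split them into sphingosine, which sphingosine kinases turn into sphingosine-1-phosphate, a signalling lipid that a phosphatase recycles and a lyase destroys.

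Library totals were close, at 609369 to 672912 summed FPKM, and, judged from the spacing of low FPKM, relative depth lay within a factor of 1.21 of control 261 throughout. Rictor, a defining subunit of mTOR complex 2, was at 5.63 (261), 6.02 (262) and 4.37 FPKM (264) in the controls, against 6.83, 7.04 and 6.86 FPKM in libraries 263, 265 and 266, which are labelled knockout. It was thus not lower in the libraries labelled knockout (log2 difference 0.33 ± 0.11, limma adjusted p = 0.0694), and an FPKM over the whole gene may include exons that a deletion leaves in place. Since Rictor does not check the labels, each direction is stated for the libraries labelled knockout. Control 264 stood apart: its deviations from the gene means ran against gene length (Spearman's rho -0.358 across genes, which are not independent replicates). For controls 261 and 262 rho was -0.007 and 0.003. In the knockout-labelled libraries rho was 0.173 to 0.263, above every control. The length trend thus differed between the groups as well, and calls after a length and GC adjustment are given below. Y-linked genes and Xist showed 2 males among the controls and 1 among the knockout-labelled libraries.

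Of the 32 genes, 6 rose (18.8%) and 11 fell (34.4%) in the knockout-labelled libraries by limma's linear model on log2(FPKM + 1), with p-values adjusted over all tested genes and a threshold of 0.05. Among all tested genes 7.91% rose and 15.6% fell, so both shares of the 32 genes lay above the background. Groups that do not overlap, higher or lower, were seen in 7 and 15 of the 32 genes, against 16.6% and 29.2% of all tested genes. The median log2 difference was -0.14 for the 32 genes and -0.06 for all tested genes. Genes that rose were Sptlc3, Cers2, Cers3, Degs2, Ugcg and Sgms1, all of which act in building ceramide or in adding a head group to it. Genes that fell were Fa2h, Cers4, Ormdl2, Ormdl3, Kdsr, Abhd5 and 5 of the 6 breakdown genes. Of the 15 genes of synthesis 4 rose (26.7%) and 5 fell (33.3%), so this role had no single direction. Without the 3 Ormdl genes, 4 of 12 rose and 3 fell.

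How many genes rose or fell varied with the scaling. As deposited, 33.7% of all called genes were higher, against 44.8% after median scaling and 50.1% after trimmed mean scaling. For the 32 genes median scaling gave 7 higher and 8 lower, with a background of 10.3% higher and 12.7% lower, and trimmed mean scaling gave 7 and 7, with a background of 12.0% and 11.9%. Of the 17 called genes, 9 kept their call under all 18 other settings tried: Ormdl3, Cers3, Degs2, Fa2h, Ugcg, Sgms1, Acer1, Sphk1 and Sphk2. The remaining 8 lost it under at least 3 of those settings.

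**Figure D1:**
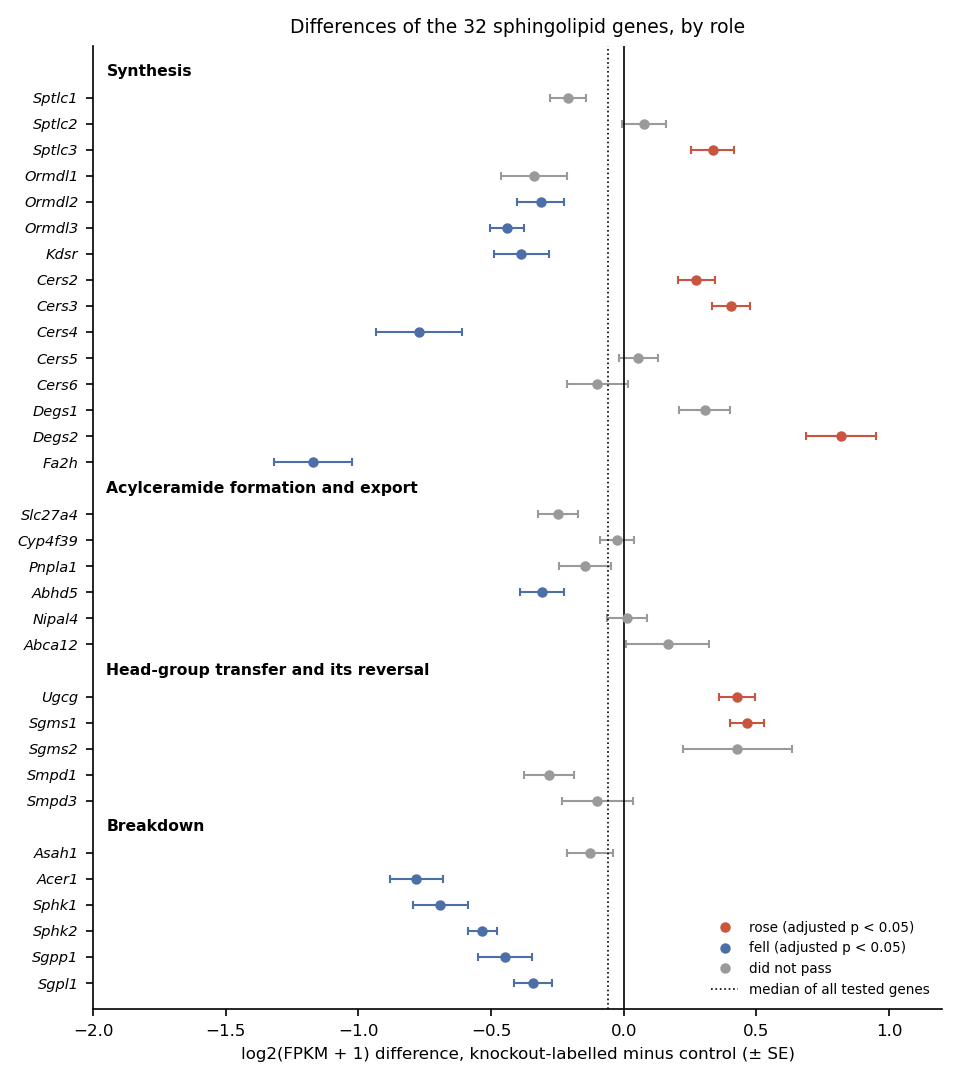
The x axis gives the log2(FPKM + 1) difference, knockout-labelled minus control, with its SE (n = 3 per group), for each of the 32 genes, and the dotted line marks the median of all tested genes at -0.06. All 6 breakdown genes lie left of 0, and the genes that rose lie in synthesis and head-group transfer.

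Promoter sequences are shown for the genes whose call held under every setting, as far as RefSeq gives them 1 start and GENCODE M21 puts at most 20 exonic bases of the gene in the window. These are Degs2 and Cers3, which rose, and Acer1, which fell. The RefSeq table (GRCm38.p6) held 29 of the 32 genes with 43 starts, and had no entry for Fa2h, Smpd3 and Asah1. Capitals mark the GC box GGGCGG on either strand, the only one of 6 searched motifs present in these 3 stretches. Each sequence runs 5′ to 3′ on the strand of its gene and ends at the gene's start.
Degs2 (chr12:108702316-108702556, - strand): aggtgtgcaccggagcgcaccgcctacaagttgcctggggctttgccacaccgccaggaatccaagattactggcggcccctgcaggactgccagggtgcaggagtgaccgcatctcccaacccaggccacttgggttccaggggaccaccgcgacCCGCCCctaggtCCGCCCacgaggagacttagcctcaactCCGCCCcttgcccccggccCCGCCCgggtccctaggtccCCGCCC
Cers3 (chr7:66743254-66743503, + strand): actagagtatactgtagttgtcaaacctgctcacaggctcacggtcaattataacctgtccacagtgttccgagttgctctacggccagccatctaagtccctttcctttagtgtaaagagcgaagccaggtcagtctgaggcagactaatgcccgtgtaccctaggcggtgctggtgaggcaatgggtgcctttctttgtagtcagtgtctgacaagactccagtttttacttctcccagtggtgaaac
Acer1 (chr17:56982127-56982376, - strand): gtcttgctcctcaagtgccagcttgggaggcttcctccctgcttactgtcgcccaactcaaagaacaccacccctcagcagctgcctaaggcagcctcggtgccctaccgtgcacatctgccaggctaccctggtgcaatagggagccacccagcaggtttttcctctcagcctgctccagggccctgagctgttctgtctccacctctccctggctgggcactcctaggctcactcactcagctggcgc

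The Degs2 stretch of 241 bases holds 5 GC boxes and has a GC content of 69.3%, against 49.6% for Cers3 and 61.6% for Acer1, which hold none. Over windows from 250 bases before to 50 after each start, the GC box was found in 53.5% of the 43 windows of these genes and in 35.7% of all 32851 windows. It was found in 4 of the 6 genes that rose and in 7 of the 10 genes with an entry that fell, so it did not mark a direction. The FoxO motif GTAAACA was found in 2.33% of the genes' windows and 3.65% of all windows, and Sgms2 was the gene with a match. AP-1 (TGANTCA) matched in 11.6% of the genes' windows against 7.81%, and the E-box CACGTG in 13.95% against 7.15%. The TATA box (TATAAA) matched in 4.65% against 13.6%. The sterol response element TCACNCCAC matched in none of the 43 windows and in 1.24% of all windows. Both strands were searched, windows of 1 gene can overlap, and a match describes these letters only.

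Serine palmitoyltransferase, the enzyme of the first and rate-limiting step, is a complex of Sptlc1 with a catalytic subunit, Sptlc2 or Sptlc3. Sptlc3, the subunit that accepts a wider range of acyl chains (chromosome 2, 139493913 to 139637674), stood at 33.3, 32.8 and 31.4 FPKM in the controls (261, 262 and 264) and at 37.98, 45.8 and 40.5 FPKM in 263, 265 and 266. The groups did not overlap, and Sptlc3 rose by a log2 difference of 0.34 ± 0.08 (SE; limma adjusted p = 0.0287). Sptlc1 went from 51.9 ± 1.82 to 44.8 ± 2.55 FPKM (mean ± SD, n = 3 in each group), with a difference of -0.21 ± 0.07 that did not pass (limma adjusted p = 0.0643). Sptlc2 stood at 46.2 ± 4.20 and 48.7 ± 2.24 FPKM, with overlapping groups (0.08 ± 0.08). The call of Sptlc3 was lost without control 261 or 262 and without 265 or 266 (limma adjusted p = 0.0693, 0.0623, 0.0720 and 0.0816), with a sex term (0.0768) and without a filter on low values (0.0544).

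The Ormdl proteins are membrane proteins that bind serine palmitoyltransferase and hold it back when ceramide is plentiful. Ormdl3 (chromosome 11, 98581256 to 98587368) was nearly constant in controls 261, 262 and 264 at 49.4, 49.3 and 48.8 FPKM, and stood at 38.3, 33.8 and 35.9 FPKM in 263, 265 and 266. Ormdl3 fell by 0.44 on the log2 scale (SE 0.07, limma adjusted p = 0.00649), to 73.2% of the control mean. Ormdl2 stood at 29.2, 26.9 and 33.1 FPKM in the controls and at 23.1, 24.8 and 23.1 FPKM in 263, 265 and 266. It fell too (-0.31 ± 0.09, limma adjusted p = 0.0428), with groups that did not overlap. This call was lost without control 261 and without 263, 265 or 266 (limma adjusted p = 0.0974, 0.130, 0.0822 and 0.132). Median and trimmed mean scaling, the length and GC adjustment, a model without an intensity trend, a sex term and the lack of a filter on low values also ended the call of Ormdl2 (limma adjusted p = 0.0587, 0.0601, 0.0600, 0.0520, 0.104 and 0.0801). Dnajc14, on the other strand, covers 66.7% of the exonic length of Ormdl2, and the labels do not say whether the counting used strand, so the value of Ormdl2 is uncertain. Dnajc14 itself differed by -0.12 ± 0.06. Ormdl1 differed by -0.34 ± 0.12 and did not pass (limma adjusted p = 0.0941), but passed without control 262 (adjusted p = 0.0471).

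Kdsr, the reductase of 3-ketodihydrosphingosine and so the second step, stood at 12.3, 9.59 and 9.70 FPKM in the controls and at 7.76, 7.34 and 8.23 FPKM in 263, 265 and 266. Every knockout-labelled library lay below every control, and Kdsr fell (-0.39 ± 0.10, limma adjusted p = 0.0389). The call was lost without control 261 and without 263, 265 or 266 (limma adjusted p = 0.0705, 0.109, 0.116 and 0.0804). Median, trimmed mean and quantile scaling, a sex term and the lack of a filter on low values also ended the call of Kdsr (limma adjusted p = 0.0527, 0.0701, 0.0559, 0.0867 and 0.0879).

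Ceramide synthases join the sphingoid base to a fatty acid, and each member prefers other chain lengths. Cers3, which handles the ultra-long chains of barrier ceramides (chromosome 7, 66743504 to 66823691), stood at 41.6, 42.2 and 43.9 FPKM in the controls and at 53.0, 61.2 and 56.1 FPKM in 263, 265 and 266. It was the most abundant synthase in all 6 libraries and rose by 0.40 ± 0.07 (limma adjusted p = 0.0107). Cers2, of very long chains, stood at 11.5, 11.3 and 12.7 FPKM in the controls and at 15.2, 14.5 and 13.8 FPKM in 263, 265 and 266. Cers2 rose by 0.27 ± 0.07 (limma adjusted p = 0.0329), a call that control 264 alone could be left out without losing (adjusted p = 0.0707 to 0.119 without any other library). A sex term and the lack of a filter on low values ended it too (limma adjusted p = 0.0836 and 0.0584).

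Cers4, a synthase known for its role in skin appendages (chromosome 8, 4493026 to 4531680), moved the other way. It stood at 14.7, 16.9 and 19.55 FPKM in the controls and at 12.2, 8.19 and 8.57 FPKM in 263, 265 and 266. Library 263 lay nearest the controls without reaching them. Cers4 fell to 56.6% of the control mean (-0.77 ± 0.16, limma adjusted p = 0.0182), and the call was lost without 265 or 266 (adjusted p = 0.0595 and 0.0635) and without a filter on low values (0.0532). Cers5 (19.7 ± 1.68 and 20.4 ± 0.518 FPKM) and Cers6 (5.37 ± 0.888 and 4.91 ± 0.254 FPKM) overlapped between the groups, with differences of 0.06 ± 0.08 and -0.10 ± 0.11.

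The desaturases Degs1 and Degs2 act on dihydroceramide, and Degs2 also hydroxylates it to the phytoceramides typical of epidermis. Degs2 (chromosome 12, 108678711 to 108702315), whose promoter is printed above, stood at 22.8, 21.8 and 16.6 FPKM in the controls and at 40.6, 34.2 and 34.8 FPKM in 263, 265 and 266. It had the largest rise of the 32 genes, to 179% of the control mean (0.82 ± 0.13, limma adjusted p = 0.00794). Exons of Evl on the other strand cover 10.8% of the exonic length of Degs2, and Evl differed by -0.02 ± 0.06. Degs1, the more abundant of the pair, went from 108 ± 7.996 to 134 ± 13.99 FPKM without overlap. Its difference of 0.31 ± 0.10 did not pass as deposited (limma adjusted p = 0.0615), but passed after median scaling, trimmed mean scaling and the length and GC adjustment (adjusted p = 0.0457, 0.0389 and 0.0368) and not after quantile scaling (adjusted p = 0.0738).

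Fa2h, the fatty acid 2-hydroxylase of ceramides (chromosome 8, 111345135 to 111393824), had the largest fall of the 32 genes. It stood at 28.3, 22.7 and 26.9 FPKM in the controls and at 13.4, 10.8 and 8.98 FPKM in 263, 265 and 266. The mean fell to 42.6% of the control mean (-1.17 ± 0.15, limma adjusted p = 0.00421). Sebaceous and hair follicle markers moved with Fa2h and Cers4: 7 of 8 sebaceous markers and 7 of 8 follicle markers fell and none rose. Summed over the list, the sebaceous markers held 169 to 197 FPKM in the controls and 88.7 to 102 FPKM in the knockout-labelled libraries, and the follicle markers 1472 to 1850 and 862 to 1009 FPKM. Their part in the falls of Fa2h and Cers4 was not tested, and in these bulk samples fewer cells of a type and less RNA per cell cannot be told apart.

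**Figure D2:**
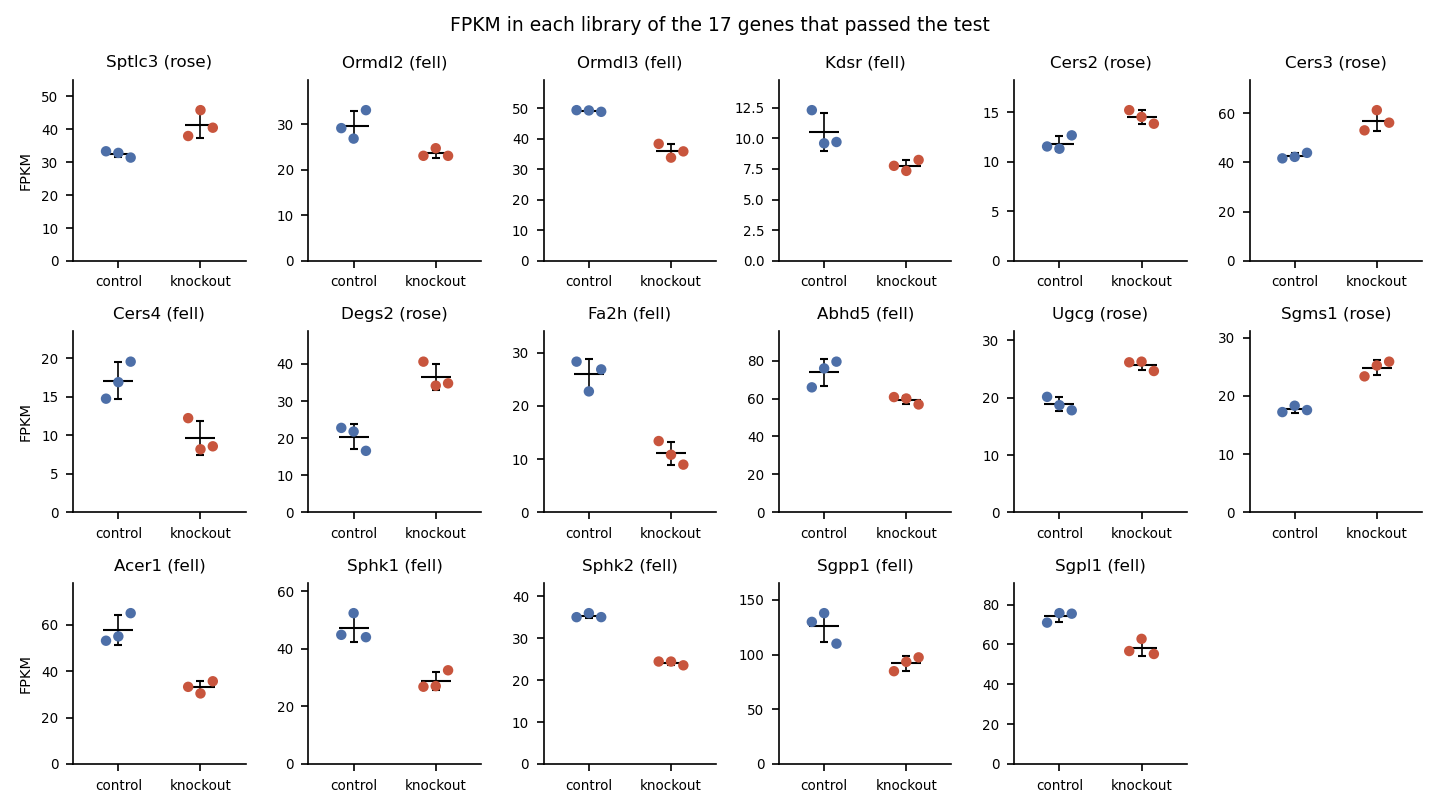
Each panel gives the FPKM, on an axis from 0, of 1 gene in the 3 control libraries (261, 262 and 264, left to right) and the 3 knockout-labelled libraries (263, 265 and 266), as points, with the mean and SD as a line and whiskers, for the 17 genes that passed the test. In every panel the groups do not overlap.

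Of the genes of acylceramide formation and export, 0 of 6 were higher and 1 of 6 lower by limma (0 and 2 at an unadjusted p under 0.05), near the background of 7.91% and 15.6% of all tested genes. Acylceramides are the linoleate-bearing ultra-long ceramides that build the lipid envelope of corneocytes. Abhd5, the lipase cofactor that aids Pnpla1 in this step (chromosome 9, 122351608 to 122381524), stood at 65.9, 75.9 and 79.4 FPKM in the controls and at 60.8, 60.02 and 56.9 FPKM in 263, 265 and 266. It fell by 0.31 on the log2 scale (SE 0.08, limma adjusted p = 0.0410). Of single libraries, only control 261 could be left out without losing this call (adjusted p = 0.0536 to 0.138 without any other), and median and trimmed mean scaling, a sex term and the lack of a filter on low values lost it too (0.0629, 0.0703, 0.0716 and 0.0729). Exons of A730085K08Rik on the other strand cover 15.95% of the exonic length of Abhd5, and that gene differed by -0.24 ± 0.08.

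The other genes of this step did not pass. Slc27a4, which activates and imports long fatty acids, went from 54.6 ± 1.25 to 45.9 ± 3.66 FPKM without overlap, a difference of -0.25 ± 0.07 (limma adjusted p = 0.0539). Pnpla1, the transacylase that attaches linoleate, differed by -0.15 ± 0.10. Cyp4f39, the omega-hydroxylase of ultra-long fatty acids, stood at 31.5 ± 0.646 and 31.0 ± 1.87 FPKM, and Nipal4, a membrane protein mutated in ichthyosis, at 46.6 ± 1.82 and 47.1 ± 3.77 FPKM. Their differences of -0.02 ± 0.07 and 0.01 ± 0.08 changed sign between settings. Abca12, the transporter that loads glucosylceramide into lamellar granules, stood at 31.7, 35.9 and 23.0 FPKM in the controls (261, 262 and 264) and at 32.1, 36.1 and 32.3 FPKM in 263, 265 and 266. Only control 264 lay apart, and the difference of 0.17 ± 0.16 became -0.01 without it.

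Of the 3 genes that give ceramide its main head groups, Ugcg and Sgms1 rose and Sgms2 did not pass. Ugcg, which makes glucosylceramide (chromosome 4, 59189257 to 59222833), stood at 20.1, 18.7 and 17.8 FPKM in the controls and at 26.2, 26.3 and 24.6 FPKM in 263, 265 and 266. Ugcg rose to 136% of the control mean (0.43 ± 0.07, limma adjusted p = 0.00794). Sgms1, the Golgi sphingomyelin synthase (chromosome 19, 32122727 to 32389714), stood at 17.2, 18.3 and 17.6 FPKM in the controls and at 23.4, 25.2 and 25.9 FPKM in 263, 265 and 266. It rose to 140% (0.46 ± 0.06, limma adjusted p = 0.00548), and the spread within each group was small beside the gap between them. Sgms2, the plasma membrane synthase, was low at 5.11, 3.01 and 2.97 FPKM in the controls and 6.63, 4.66 and 4.501 FPKM in 263, 265 and 266. Control 261 lay within the range of the knockout-labelled libraries, and the difference of 0.43 ± 0.20 did not pass (limma adjusted p = 0.174).

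Sphingomyelinases return sphingomyelin to ceramide, and none of the pair among the 32 genes passed limma's test (0 higher and 1 lower at an unadjusted p under 0.05). Outside the 32 genes, the sphingomyelinase gene Smpd2 fell (-0.33 ± 0.07, limma adjusted p = 0.0160), while Smpd4 did not pass (0.09 ± 0.08, limma adjusted p = 0.409). The lysosomal enzyme Smpd1 went from 80.7 ± 9.09 to 66.0 ± 2.93 FPKM without overlap, a difference of -0.28 ± 0.10 (limma adjusted p = 0.0750) that passed without control 261 (adjusted p = 0.0328). The neutral enzyme Smpd3 overlapped between the groups at 34.1 ± 5.46 and 31.6 ± 3.55 FPKM (-0.10 ± 0.14).

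Breakdown genes had the most uniform direction. Of 6 genes 5 fell and 0 rose by limma (5 lower and 0 higher at an unadjusted p under 0.05). Among all tested genes 15.6% fell and 7.91% rose. The median log2 difference of the 6 genes was -0.49, against -0.06 for all tested genes. The number that fell was 5 after median scaling (background 12.7% lower) and after the length and GC adjustment. It was 4 after trimmed mean scaling (background 11.9% lower) and after quantile scaling, and 3 to 5 with single libraries left out. Acer1, the alkaline ceramidase of differentiating keratinocytes (chromosome 17, 56953490 to 56982126), stood at 53.2, 55.0 and 65.1 FPKM in the controls and at 33.3, 30.4 and 35.7 FPKM in 263, 265 and 266. Acer1 fell to 57.3% of the control mean (-0.78 ± 0.10, limma adjusted p = 0.00430). Asah1, the lysosomal acid ceramidase, overlapped between the groups at 47.6 ± 3.51 and 43.6 ± 3.53 FPKM (-0.13 ± 0.09, limma adjusted p = 0.319). Exons of AC073683.1 on the other strand cover 14.1% of the exonic length of Acer1, and that gene was not analysed here.

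Both sphingosine kinases, which make sphingosine-1-phosphate, fell. Sphk1, the growth factor-responsive kinase (chromosome 11, 116530925 to 116536674), stood at 44.9, 52.4 and 44.1 FPKM in the controls and at 26.8, 27.1 and 32.6 FPKM in 263, 265 and 266. Its mean fell to 61.2% (-0.69 ± 0.10, limma adjusted p = 0.00678). Sphk2, found largely in the nucleus and organelles (chromosome 7, 45709467 to 45718002), varied little within each group, at 35.0, 36.0 and 35.0 FPKM in the controls and 24.4, 24.4 and 23.5 FPKM in 263, 265 and 266. Sphk2 fell by 0.53 (SE 0.05, limma adjusted p = 0.00266). Exons of Rpl18 on the other strand cover 8.97% of the exonic length of Sphk2, and this ribosomal protein gene stood at 1333, 1261 and 1531 FPKM in the controls and at 1162, 1156 and 1108 FPKM in 263, 265 and 266. The part of Rpl18 in the value of Sphk2 was not tested. Dbp, a further neighbour on the other strand, covers 13.0% of Sphk2 and fell by 0.45 (limma adjusted p = 0.0288).

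Sgpp1 and Sgpl1, which remove sphingosine-1-phosphate, fell as well. Sgpp2, a further phosphatase outside the 32 genes, was low at 1.84 ± 0.250 and 1.71 ± 0.344 FPKM. Its groups overlapped (-0.07 ± 0.13, limma adjusted p = 0.725). Sgpp1, the phosphatase that returns sphingosine-1-phosphate to sphingosine, was among the most abundant of the 32 genes at 130, 138 and 110 FPKM in the controls and 84.8, 93.3 and 97.4 FPKM in 263, 265 and 266. Sgpp1 fell by 0.45 (SE 0.10, limma adjusted p = 0.0242). Only control 264 could be left out without losing this call (adjusted p = 0.0561 to 0.0873 without any other library), and trimmed mean and quantile scaling, a sex term and the lack of a filter on low values lost it (0.0572, 0.0606, 0.0567 and 0.0550). Sgpl1, the lyase that ends the pathway, stood at 71.0, 75.7 and 75.4 FPKM in the controls and at 56.7, 62.8 and 55.2 FPKM in 263, 265 and 266. It fell by 0.34 (SE 0.07, limma adjusted p = 0.0182), and the call was lost without control 262, 263 or 266 (adjusted p = 0.0505, 0.0740 and 0.0764).

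Shares were taken over those members of each enzyme family that are among the 32 genes, so that the ceramidase pair leaves out Acer2, Acer3 and Asah2. Such shares do not move with a factor that scales a whole library. Of 16 shares computed in 8 families, 8 had groups that did not overlap, in either direction. For the FPKM of all tested genes this was so in 16.6% (higher) and 29.2% (lower), so the count of shares does not stand out. Shares of 1 family are also not independent of each other. With 3 libraries per group the exact permutation test, two-sided, cannot go below p = 0.1, and the smallest value adjusted over the 16 shares was 0.2, so no share could pass. Cers3 made up 45.2%, 44.2% and 43.1% of ceramide synthase FPKM in controls 261, 262 and 264 and 50.2%, 55.7% and 54.2% in 263, 265 and 266. Cers4 went from 17.6% ± 1.58 to 9.11% ± 2.19 (SD, n = 3 per group) and Cers2 from 12.3% ± 0.377 to 13.7% ± 0.649. Shares of a family have a fixed total, so a gain in 1 gene lowers others, and opposite directions of shares are no result. The Cers5 share, for example, went from 20.3% to 19.2% while its mean was 19.7 and 20.4 FPKM. In FPKM itself Cers3 and Cers2 rose and Cers4 fell, as given above. Summed over the 5 synthases the level was 96.5 ± 4.98 and 106 ± 3.23 FPKM.

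Among the serine palmitoyltransferase subunits, Sptlc3 held 24.9% ± 1.63 in the controls and 30.7% ± 1.24 in the knockout-labelled libraries, and Sptlc1 held 39.7% ± 0.671 and 33.2% ± 1.01. The summed level of the 3 subunits was 131 ± 4.90 and 135 ± 7.65 FPKM. Degs2 took 15.8% ± 1.91 and 21.5% ± 2.72 of the desaturase pair. Acer1 took 53.0%, 55.4% and 55.9% of the ceramidase pair in the controls and 45.2%, 39.1% and 45.4% in 263, 265 and 266, so that Acer1 was above Asah1 in each control and below it in each knockout-labelled library. For the Ormdl genes, the sphingomyelin synthases, the sphingomyelinases and the sphingosine kinases every share overlapped between the groups. Sphk1, for example, held 57.0% ± 1.95 and 54.3% ± 3.23 of the kinase pair while the sum of the pair went from 82.5 ± 5.15 to 53.0 ± 2.72 FPKM.

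**Figure D3:**
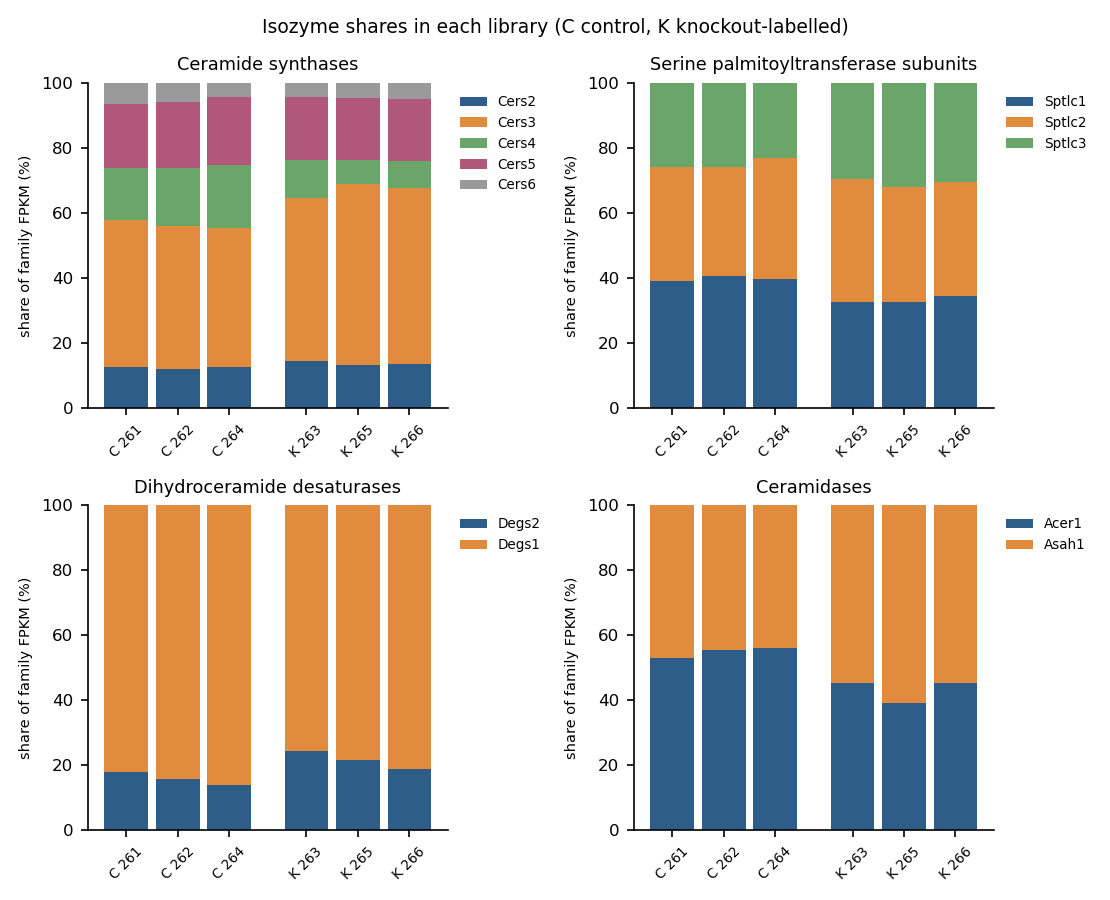
Bars give the share of each gene, in percent of the summed FPKM of the genes drawn in its panel, in each library, for 5 ceramide synthases, 3 serine palmitoyltransferase subunits, 2 desaturases and the ceramidase pair Acer1 and Asah1. The Cers3 band spans 43.1% to 45.2% in the controls (C) and 50.2% to 55.7% in the knockout-labelled libraries (K), and the Acer1 band exceeds that of Asah1 in the 3 controls and in none of the knockout-labelled libraries.

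Other genes of sphingolipid metabolism were taken from a list of 55 found in the table, of which 49 were tested and 1 entered through a single group. Here 1 rose (2.04%) and 18 fell (36.7%) by limma, against a background of 7.91% higher and 15.6% lower. The median log2 difference of this list was -0.20. The gene that rose was B4galnt1, a ganglioside synthase, from 15.2 ± 0.280 to 19.0 ± 1.54 FPKM (0.30 ± 0.07, limma adjusted p = 0.0277). Its call was lost without control 261 or 262 and without 263 or 266. Among those with the smallest p that fell were Arsa, Psap and Plpp2. Psap, the precursor of the saposins that present sphingolipids to lysosomal enzymes, stood at 296, 305 and 336 FPKM in the controls and at 186, 209 and 200 FPKM in 263, 265 and 266. Arsa, the sulfatide-cleaving arylsulfatase, fell from 10.1 ± 0.860 to 5.84 ± 0.417 FPKM. Plpp2, a lipid phosphate phosphatase, fell from 31.997 ± 0.673 to 23.8 ± 0.435 FPKM.

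Named after their values were seen, Hexa (-0.41 ± 0.10), Glb1 (-0.37 ± 0.06) and Neu1 (-0.22 ± 0.06), which code for lysosomal glycosidases, also fell. Galc (-0.27 ± 0.10) and Gla (-0.22 ± 0.11), of the same kind, did not pass (limma adjusted p = 0.0865 and 0.177). The ceramidase Acer2 (-0.76 ± 0.15) fell, while the ceramidases Acer3 (0.04 ± 0.08) and Asah2 (0.11 ± 0.09) did not pass. The sphingosine-1-phosphate exporter Spns2 (-0.37 ± 0.10) and Elovl4 (-0.32 ± 0.06), the elongase of ultra-long acyl chains, fell. Of the 5 sphingosine-1-phosphate receptor genes S1pr5 fell (-0.59 ± 0.11), S1pr2 (0.04 ± 0.10) and S1pr3 (-0.28 ± 0.11) did not pass, and S1pr1 and S1pr4 were too low to test. Myeloid cells are rich in lysosomal enzymes, and 4 of 5 tested myeloid markers fell as well, with a list sum of 36.0 to 45.8 FPKM in the controls and 24.8 to 27.2 FPKM in the knockout-labelled libraries and Cd207 under 1 FPKM throughout. Their part in the falls of Psap, Hexa, Glb1 and Neu1 was not tested. Alox12b and Elovl1, which act on acylceramide and on very long chains, did not pass, at 107 ± 28.9 and 139.6 ± 19.9 FPKM and at 477 ± 50.8 and 502 ± 30.3 FPKM.

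Markers of the layers of the epidermis in which these genes act moved unequally in the same libraries. All 5 basal keratinocyte markers rose (list sum 6193 to 7126 FPKM in the controls and 10997 to 13021 FPKM in the knockout-labelled libraries), as did all 3 markers of stressed keratinocytes (92.9 to 141 and 2154 to 5002 FPKM). Of 8 spinous and granular markers 2 fell, Casp14 and Tgm3, and 0 rose (27656 to 30443 and 25546 to 26886 FPKM). Krt1, Krt10, Lor and Flg, which define the differentiated layers and so the labelled tissue, were abundant in all 6 libraries. How far these marker differences enter the values of the 32 genes was not tested, and cell number and RNA per cell cannot be told apart here. Endothelial markers were all under 1 FPKM, fibroblast markers summed to 114 to 142 and 124 to 159 FPKM, with 2 of 4 tested rising and Pdgfra and Lum under 1 FPKM, and adipocyte markers to 6.09 to 16.6 and 5.33 to 11.0 FPKM. Melanocyte markers fell in 3 of 4 (336 to 416 and 252 to 283 FPKM) and T cell markers in the 2 tested of 4 (5.82 to 10.3 and 1.59 to 3.38 FPKM). Of these T cell markers, Cd3e entered the test through the controls alone (means of 1.37 and 0.388 FPKM), which favours a fall. The untested Trdc (0.599 and 0.170 FPKM) and Trac (0.534 and 0.859 FPKM) went opposite ways. Muscle and red blood cell markers were at 2.81 to 5.88 and 3.04 to 11.7 FPKM and at 104 to 167 and 54.9 to 120 FPKM. Of the 5 adipocyte, muscle and red blood cell markers tested, 0 passed limma's test (2 at an unadjusted p under 0.05).

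**Figure D4:**
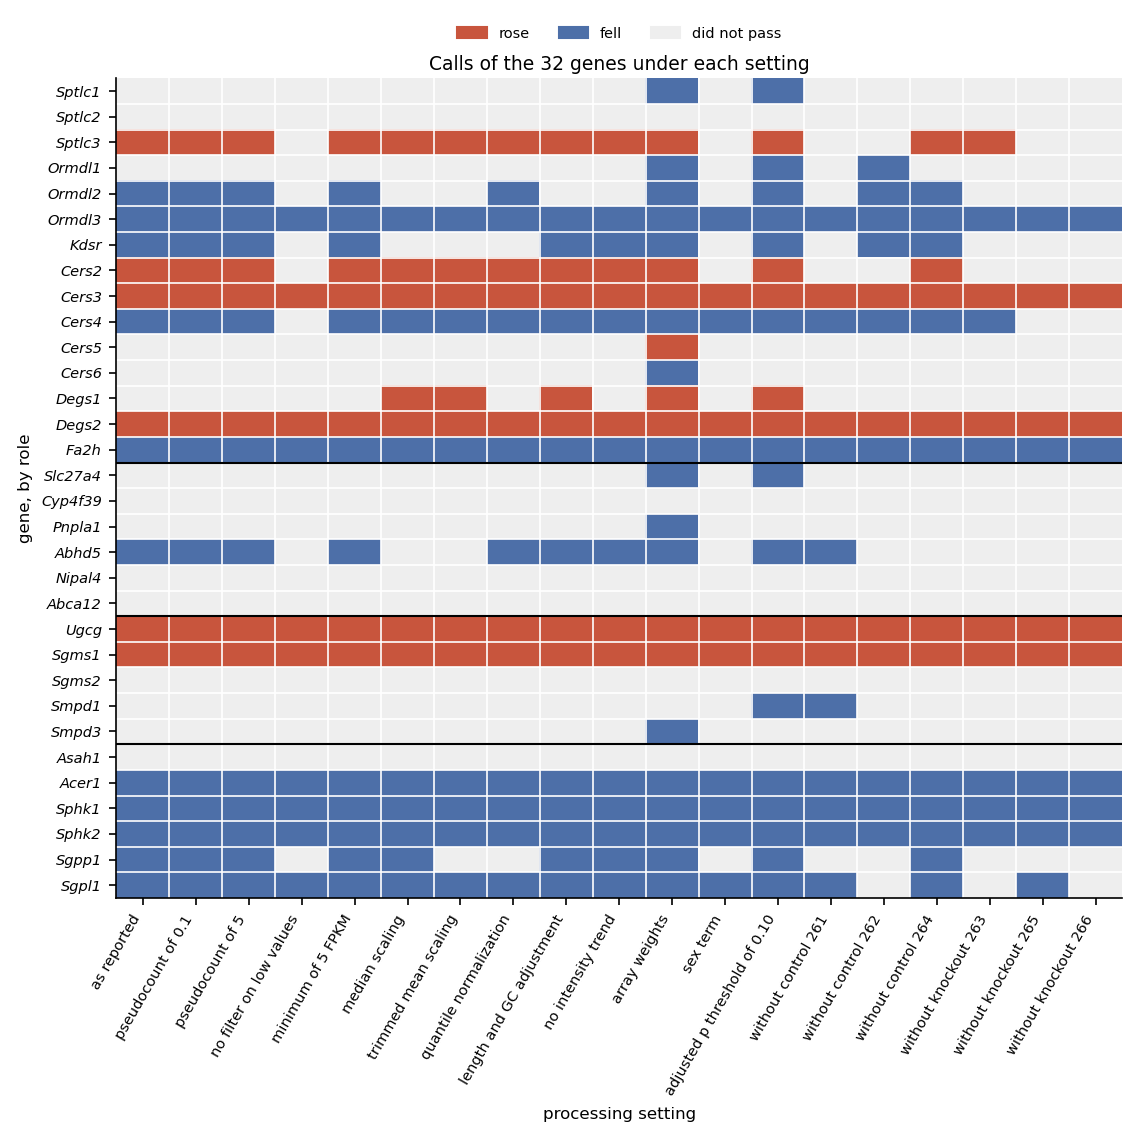
Rows are the 32 genes by role, with black lines between roles, and columns the setting as reported and the 18 others; red marks genes that rose, blue those that fell and grey those that did not pass. Unbroken coloured rows mark the 9 genes whose call held under every setting.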

How the data were processed

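Libraries were assigned to groups from their titles and genotype labels, 3 per group. CASAVA and Cufflinks were used with GRCm38, per the submitters' processing notes, without versions. Aligner, annotation and strandedness were not given in the sources used here. FPKM were deposited by the authors in a single table, 1 column a library, per the file headers. FPKM need a linear model rather than a count model. Of 49452 rows, 49109 matched GENCODE M21 (GRCm38) and symbols with several rows were represented by their most abundant one, leaving out 66 rows.

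Genes whose mean reached 1 FPKM in either of the groups were analysed as log2(FPKM + 1) with limma 3.58.1 in R 4.3.3 (intensity trend, prior degrees of freedom 2.80, two-sided, Benjamini-Hochberg over 13500 genes, threshold 0.05). Differences are on that scale, which understates changes of low genes. No gene-level counting error can be given. On data simulated from the real means and spreads of 13500 genes for this comparison, the test recovered 96% of 100 genes changed 2-fold and 100% of 100 changed 4-fold, and called 11 unchanged genes. The changed genes were drawn from the more abundant ones, and the noise was independent, without length or sex effects. Among the 32 members only Fa2h changed by 2-fold or more, and recovery of smaller changes was not simulated. FPKM divides by library total and gene length, so abundant genes or a length trend move other values. The members, gene lists and tests were chosen with earlier results of these data known. Named genes are all 32 members, Rictor and, from the wider list, up to 4 called genes in each direction with the smallest p (1 was called higher), except an item that is not reported here. Other genes of that list were named after their values were seen. Shares within families were compared with SciPy 1.17.1. Alternatives were other pseudocounts, filters, scalings, variance models, a sex term, a threshold of 0.10 and each library left out. Figures used matplotlib 3.10.9.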

Additional observations from a re-analysis of the deposited data

How the results depend on the processing

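Of 576 recomputed differences of single genes over 18 settings, 493 kept direction and side of the threshold, 56 lost a call, 18 gained one and 9 changed sign. Under the threshold of 0.10, which reused the same fit, no call could be lost and no sign could change. The other filters and the model without an intensity trend left each difference as it was, so no sign could change there either. Sign changes were seen in 3 genes that were not called: Cyp4f39 (0.0193, 0.0458, 0.0042 and 0.0907 after median, trimmed mean, quantile and length and GC scaling, and -0.0720 to 0.0058 with single libraries left out), Nipal4 (-0.0456 with array weights, and -0.0489 to 0.0586 with single libraries left out) and Abca12 (-0.0113 without control 264 to 0.299 without control 262). Among the 32 genes the number that fell was 6 without a filter, 7 after trimmed mean scaling, 7 with a sex term and 17 with array weights. Over all genes array weights called 6272 (2335 higher, 3937 lower) and a sex term 1852 (634 and 1218), while 1620 were higher after trimmed mean scaling and 1688 after the length and GC adjustment. Of the wider list 0 were higher without a filter and with a sex term by limma (4 and 1 at an unadjusted p under 0.05), 2 after trimmed mean, quantile or length and GC scaling and at a threshold of 0.10, and 4 with array weights. With single libraries left out the counts ran from 1462 to 3784 called genes, 477 to 1514 higher and 985 to 2270 lower, lowest without 263 and highest without control 264. They ran from 4 to 6 higher and 5 to 10 lower among the 32 genes (lowest without 266 for the latter), and from 0 to 2 higher (limma; 1 to 3 at an unadjusted p under 0.05) and 8 to 19 lower in the wider list. Shares without overlap numbered 8 to 13, the latter without control 264. The cause of these shifts was not tested. No paired analysis was possible because the labels used here name no litter or pair. The 3 libraries per group limit the precision of every value.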
